A study of Mus musculus with 6 samples.

Results

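Egr1, Egr2, Egr3, Ier2, Ier3, Ier5, Nr4a1, Klf6 and Klf10 were followed here as members of the early response, 9 of the 39017 genes counted in mouse embryonic stem cells (mESCs) before and after acute loss of RNA polymerase II (Pol II). The genes were chosen by name, with their counts in all 3 groups of libraries already known, so their own values are given below as a description and no test on them is used as support. PolyA RNA-Seq was available for 6 libraries in 3 groups of 2. The untreated and the auxin-treated libraries came from 1 clonal line of V6.5 mESCs in which both copies of RPB1, the largest subunit of Pol II, carry the mAID-GFP tag and in which the plant F-box protein OsTIR1 stands at the Rosa26 locus. These degron cells received 1 μg/ml doxycycline for 12 h to induce OsTIR1 and were then left without auxin (untreated) or given 500 μM auxin, indole-3-acetic acid, for 6 h, which marks the tagged RPB1 for degradation. The wild-type libraries came from V6.5 mESCs, and whether these cells received doxycycline is not stated. All cells were grown with irradiated mouse embryonic fibroblasts as feeders, in serum and leukemia inhibitory factor, and the methods place their harvest after passages of the feeders without giving how many feeder cells remained. Wild type and untreated cells therefore differ in the tag, the OsTIR1 insertion, the clone, possibly doxycycline and the deposited table. These differences cannot be told apart. The study's methods call the replicates of its sequencing experiments biological, but no source ties a library to a culture, so the errors given here measure the spread between libraries.

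Early response genes are transcribed within minutes of a signal, without new protein synthesis, and most of their mRNAs are short-lived. Growth factor signals reach them through the kinases MEK and ERK, which act on serum response factor (SRF) and its partners, the ternary complex factors, at a DNA element called the CArG box, while cyclic AMP and calcium signals act through the factor CREB. EGR proteins are zinc finger activators that induce their own corepressors of the NAB family, Nr4a1 encodes the orphan nuclear receptor Nur77, Klf6 and Klf10 encode zinc finger factors of the Krüppel-like family, and among the IER genes Ier2 and Ier5 encode related proteins, while Ier3 encodes an unrelated one. Many of these mRNAs carry AU-rich elements in the 3′ untranslated region (UTR), where proteins such as those of the Zfp36 family bind and shorten the life of the mRNA. In mESCs, autocrine FGF4 keeps ERK signaling active, and Egr1 is commonly used as a readout of that pathway.

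Most of the 9 genes are compact, a property that did not enter their choice, and Nr4a1 is the exception in both length and exon number. In the GENCODE vM21 annotation of GRCm38 (mm10), the build of the deposited counts, their lengths ran from 1240 to 20527 bases with a median of 5412, against a median of 17670.5 bases for 21220 protein-coding genes. Their transcripts had 1 to 8 exons with a median of 2, against a median of 7, and no other annotated gene overlapped any of them. The letters ATTTA, the core of an AU-rich element, were found in the 3′ UTR of 8 of the 9 genes, with a median density of 2.50 per kb, while 61.9% of 20113 protein-coding genes with a 3′ UTR held at least 1 and their median density was 1.13 per kb. Ier2 was the member without a match, and none of the 9 held the longer form TTATTTATT, which 6.97% of these genes held. Both densest members are given here as the stretch of 30 bases with the most matches, given 5′ to 3′ in DNA letters of the annotated transcript, with each ATTTA in capitals. Ier3 had 5 matches in 613 bases of 3′ UTR and Nr4a1 had 3 in 543 bases.
Ier3: ctccgtgtctaattaatATTTAtgtATTTA
Nr4a1: gATTTAtatttgtgtattttcctggATTTA

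Promoter windows, from 250 bases before to 50 bases after a transcript start, were found in the RefSeq table of GRCm38.p6 for 5 of the 9 genes, namely Egr2, Ier3, Ier5, Nr4a1 and Klf6. Each window was searched on both strands for the CArG box, for TGACGTCA and its shorter form TGACG (bound by CREB), for TGACTCA (AP-1), for GCGGGGGCG and GCGTGGGCG (EGR proteins) and for TATAAA. The TGACG search also counts the start of TGACGTCA. The windows of Egr2 and Nr4a1 held matches and are printed with the matches in capitals, and those of Ier3, Ier5 and Klf6 held none. The windows of Ier5 and Klf6, which were called lower in wild type, are printed as examples without a match, and that of Ier3, which was not called, is not printed. Each is given 5′ to 3′ on the strand of the gene.
Egr2, chr10:67537619-67537918, plus strand: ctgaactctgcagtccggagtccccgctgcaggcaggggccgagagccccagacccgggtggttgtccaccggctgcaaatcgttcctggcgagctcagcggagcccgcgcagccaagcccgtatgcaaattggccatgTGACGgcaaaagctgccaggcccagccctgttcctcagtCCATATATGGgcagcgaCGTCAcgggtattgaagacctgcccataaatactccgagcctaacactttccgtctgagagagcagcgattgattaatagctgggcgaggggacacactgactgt
Nr4a1, chr15:101266596-101266895, plus strand: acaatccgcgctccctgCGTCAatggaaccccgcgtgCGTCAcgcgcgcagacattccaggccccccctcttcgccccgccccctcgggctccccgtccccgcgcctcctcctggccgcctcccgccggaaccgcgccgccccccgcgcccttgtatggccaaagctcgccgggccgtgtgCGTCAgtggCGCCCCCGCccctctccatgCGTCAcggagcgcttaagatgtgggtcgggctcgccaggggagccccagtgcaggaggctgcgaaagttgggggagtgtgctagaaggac
Ier5, chr1:155099587-155099886, minus strand: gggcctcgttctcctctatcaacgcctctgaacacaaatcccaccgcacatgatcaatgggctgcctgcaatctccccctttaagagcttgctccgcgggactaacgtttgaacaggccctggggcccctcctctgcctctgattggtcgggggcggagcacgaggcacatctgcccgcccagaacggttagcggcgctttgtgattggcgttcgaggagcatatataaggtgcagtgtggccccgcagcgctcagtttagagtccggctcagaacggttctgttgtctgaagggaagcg
Klf6, chr13:5861239-5861538, plus strand: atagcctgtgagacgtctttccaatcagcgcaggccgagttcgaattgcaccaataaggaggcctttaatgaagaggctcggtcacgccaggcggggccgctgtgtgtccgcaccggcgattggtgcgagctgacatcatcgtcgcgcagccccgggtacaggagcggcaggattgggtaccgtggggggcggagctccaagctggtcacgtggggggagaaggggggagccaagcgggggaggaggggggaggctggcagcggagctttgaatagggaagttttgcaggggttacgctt

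In the Egr2 window the capitals mark a CArG box between a TGACG and its reverse complement CGTCA. A CArG box was found in 1.63% and TGACG in 20.8% of the 32851 windows of the table. Egr2 has 5 windows there, of which 4 held a CArG box and the last 3, which overlap, held the same CArG box and TGACG matches. The Nr4a1 window held CGTCA 4 times and the reverse complement of GCGGGGGCG, CGCCCCCGC, once, the latter a match found in 2.91% of windows. This Nr4a1 start lies inside the annotated gene, downstream of its first base. No match to the remaining motifs was found in any window of the 5 genes, and the absence of letters in a window of this length says nothing of the factors themselves.

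The libraries held between 14094022 and 15358714 counts on genes, and the 9 members together took between 0.0363% and 0.0518% of them. Replicates differed by more than sampling noise, with a chi-square per degree of freedom across genes of 5.72 in the untreated, 2.31 in the auxin-treated and 2.59 in the wild-type group. All 12 mESC markers were expressed in every group, with a summed level of 4855 to 5571 CPM (counts scaled to a common library size) in untreated, 4008 to 4307 in auxin-treated and 7882 to 7975 in wild-type libraries. The 14 markers of feeder fibroblasts summed to 318 to 336, 377 to 425 and 216 CPM in the same order. Lum was at 0 in both groups of degron cells. Of the 12 mESC markers, 0 were called higher and 6 lower with auxin, and 7 higher and 3 lower in wild type. The shares of all genes called are given below. The records of the wild-type libraries mention retinas in the RNA extraction, but 12 retinal markers summed to at most 9.73 CPM there, with Crx, Rcvrn and Opn1mw at 0. The mRNAs of the mitochondrial genome took 0.341% to 0.441% of the counts in the 4 degron libraries and up to 1.53% in wild type. Polr2a mRNA does not check the treatment, because auxin removes the protein.

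After 6 h of auxin, no member was called against untreated cells, and the members had no common direction. Changes here are shares of each library after trimmed mean scaling (TMM), so a loss of RNA common to all genes is not measured, and in bulk RNA fewer cells of a type and less RNA per cell cannot be told apart. Of the 7 members that passed the filter on low counts, 3 had a positive and 4 a negative fitted log2 fold change, from −0.35 for Nr4a1 to 0.42 for Egr1, and their median was −0.06 against −0.00038 for all 16128 genes tested. The edgeR quasi-likelihood test called 0 of the 7 at an adjusted p under 0.05, while 2.56% of all genes were called higher and 1.64% were called lower. DESeq2 called 0 of the members. At an unadjusted p under 0.05 the edgeR count was 3 of 7 (Egr1, Nr4a1 and Klf10). Over all 16128 genes tested, 1733 were under that threshold with a positive and 1512 with a negative log2 fold change. Without untreated replicate 1 the same test called 4 members (Egr1 and Ier5 higher, Ier2 and Klf10 lower) among 2724 genes in all, and without untreated replicate 2 it called 1 (Nr4a1, lower) among 1114 genes. The CPM values of both groups did not overlap for Egr1 and Egr2, which were higher with auxin, and for Nr4a1 and Klf10, which were lower. Over all genes tested 25.0% lay apart in the upward and 24.8% in the downward direction. Egr2, which did not pass the filter, is not among those genes.

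Against the same untreated libraries, the wild-type cells held about 10 times more Egr1 mRNA, while the 6 other members that passed the filter had log2 fold changes between −0.59 and 0.33. The test called 3 of the 7 members higher in wild type (Egr1, Ier2 and Klf10) and 2 lower (Ier5 and Klf6), and Ier3 and Nr4a1 were not called. In this comparison 29.9% of all 15778 genes tested were called higher and 30.7% lower, so a call is common here and nothing is read from the members' count. The median of the 7 fitted values was 0.30 against −0.0096 for all genes, and it was 0.12 without untreated replicate 2. All 9 members lay apart from the untreated libraries in CPM, 6 higher and 3 lower. These include Egr2 (higher) and Egr3 (lower), which had few counts and did not pass the filter. Of the 15778 genes tested, which leave out Egr2 and Egr3, 40.0% lay apart upward and 41.0% downward. For Egr1, 188 genes had a larger absolute log2 fold change, whereas at least 37.8% of genes exceeded each of the other 6. The directions of Ier2, Ier3, Nr4a1 and Klf10 turned in 1 of 14 alternative settings, the scaling to the mitochondrial mRNAs. DESeq2 size factors and library totals, which moved the median of all genes by 0.0053 and −0.058, kept them. Scaling to the mitochondrial mRNAs, all 13 of which were called higher in wild type with a median log2 fold change of 2.24, moved the median of all genes by −2.09 and turned these 4 members negative, with values of −1.77, −1.81, −1.91 and −1.75, while Egr1 stayed positive at 1.27.

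**Figure D1:**
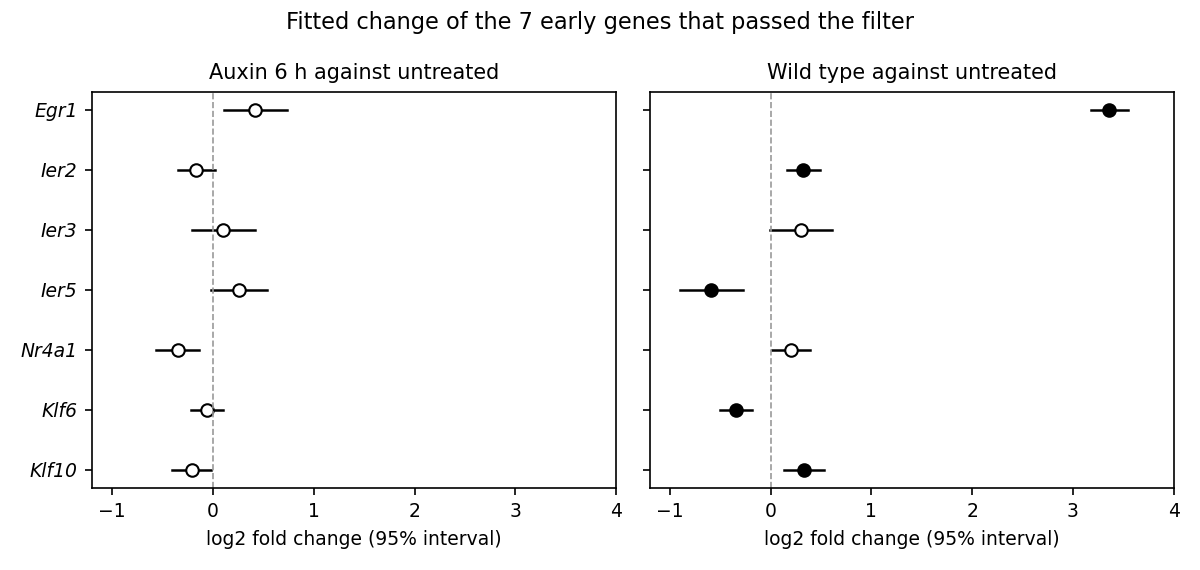
Fitted log2 fold change (x axis) of the 7 early genes that passed the filter, for auxin 6 h (left) and wild type (right) against the same untreated libraries, with 95% intervals as bars and filled points for called genes. Egr1 in wild type, at 3.36, lies far from the other points, which all lie between −0.59 and 0.42, and Ier2, Ier3, Nr4a1 and Klf10 in wild type turn negative when scaled to the mitochondrial mRNAs.

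Levels were compared between members per kb of exon, as CPM per kb after TMM scaling over all 6 libraries. Ier2 was the most abundant in each group, at 62.5 ± 5.71 in untreated, 55.1 ± 5.14 in auxin-treated and 78.6 ± 2.51 in wild-type cells (SD, n = 2), and Klf10 followed at 29.3 ± 4.57, 25.0 ± 0.463 and 37.1 ± 1.06. In untreated cells Klf6, Nr4a1, Ier3 and Ier5 came next, between 17.0 and 8.84 CPM per kb, and Nr4a1 and Ier3 were the neighbors whose libraries overlapped. Egr1 was the member that changed its place most. It held rank 7 of 9 in untreated and auxin-treated cells, at 2.27 ± 0.110 and 3.00 ± 0.412 CPM per kb, and rank 3 in wild type at 23.5 ± 0.377. Egr2 and Egr3 were at the bottom in every group, at no more than 0.196 CPM per kb on average. Neighbors with overlapping libraries were Egr2 and Egr3 in untreated cells, Ier5 and Nr4a1 after auxin, and Ier3 and Nr4a1 in wild type.

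**Figure D2:**
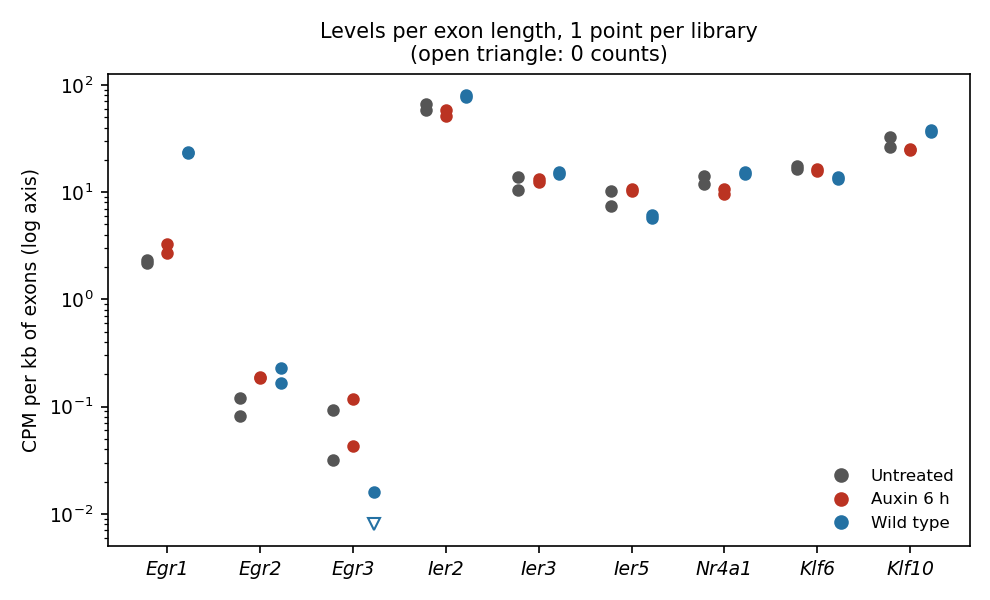
CPM per kb of exon on a log axis (y axis) for each of the 9 early genes (x axis), 1 point per library, in untreated, auxin-treated and wild-type cells, with an open triangle for a library with 0 counts. Ier2 and Klf10 lead in every group, Egr1 in wild type lies below Klf10 at 23.5, and Egr2 and Egr3 lie more than 10 times below the other members in each group.

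Egr1 (ENSMUSG00000038418, chr18:34859823-34864984, plus strand) encodes the zinc finger activator induced by ERK and SRF. It had 151 and 143 counts in the untreated, 194 and 229 in the auxin-treated and 1477 and 1525 in the wild-type libraries. Both wild-type libraries lay far above the other 4, and both auxin-treated libraries lay above both untreated ones by a smaller step. As CPM these were 10.2 ± 0.495, 13.5 ± 1.85 and 105 ± 1.69 (SD, n = 2). The fitted log2 fold change with auxin was 0.42 (SE 0.15, 95% interval 0.11 to 0.74), a change of 1.34 times that was not called. In wild type it was 3.36 (SE 0.08, 95% interval 3.18 to 3.54), or 10.3 times the untreated level with an interval of 9.06 to 11.7 times. Only 46 of 15778 genes had a larger log2 fold change in this direction.

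Egr2 and Egr3 encode close relatives of Egr1 that bind the same GC-rich site, and both were near the limit of detection. Egr2 (ENSMUSG00000037868, chr10:67535475-67542188, plus strand), whose promoter with the CArG box is printed above, had 4 and 6 counts in untreated, 10 and 10 in auxin-treated and 11 and 8 in wild-type libraries. Both other groups lay above the untreated libraries, but by few reads. The ratio of the groups, from summed counts scaled for depth, was 1.84 with auxin (exact 95% interval for counting error 0.821 to 4.39) and 1.92 in wild type (0.851 to 4.63), and both intervals include no change. Egr3 (ENSMUSG00000033730, chr14:70077203-70082614, plus strand) had 2 and 6 counts in untreated, 3 and 8 in auxin-treated and 1 and 0 in wild-type libraries. The ratio was 1.26 with auxin (0.463 to 3.62), and in wild type it was 0.127 (0.00285 to 0.944) from 1 count against 8. Neither gene passed the filter, and these intervals leave out any spread between cultures. The wild-type rise of Egr1 was thus not seen in Egr3, whose wild-type libraries were the lowest of the 6.

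Nr4a1 (ENSMUSG00000023034, chr15:101254269-101274795, plus strand) encodes the nuclear receptor Nur77, which acts without a known ligand, and its promoter with 4 CGTCA matches is printed above. Its counts were 711 and 612 in untreated, 532 and 584 in auxin-treated and 734 and 774 in wild-type libraries. In CPM the auxin-treated libraries were the lowest and the wild-type libraries the highest, at 45.8 ± 5.31 in untreated, 35.5 ± 3.06 with auxin and 52.9 ± 1.64 in wild type. The log2 fold change with auxin, −0.35 (SE 0.10, 95% interval −0.56 to −0.14), was the lowest of the members and was not called. In wild type it was 0.20 (SE 0.09, 95% interval 0.01 to 0.39), also without a call, and it turned negative when scaled to the mitochondrial mRNAs.

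Klf10 (ENSMUSG00000037465, chr15:38291463-38300706, minus strand), a Krüppel-like repressor known as an early target of TGF-beta, had 1562 and 1977 counts in untreated, 1643 and 1639 in auxin-treated and 2157 and 2267 in wild-type libraries. The untreated replicates were far apart, at 109 and 136 CPM, and lay between the auxin-treated libraries, at 103 and 106, and the wild-type libraries, at 152 and 158. The log2 fold change was −0.21 with auxin (SE 0.09, 95% interval −0.41 to −0.02), not called, and 0.33 in wild type (SE 0.09, 95% interval 0.14 to 0.53), called and turned negative under mitochondrial scaling. Klf6 (ENSMUSG00000000078, chr13:5861482-5870394, plus strand), a Krüppel-like activator with roles in growth control, had 1109 and 1046, 1161 and 1064, and 820 and 863 counts in the same order of groups. Its auxin-treated and untreated libraries overlapped in CPM, while both wild-type libraries were lower. The log2 fold change was −0.06 with auxin (SE 0.07, 95% interval −0.22 to 0.10) and −0.35 in wild type (SE 0.07, 95% interval −0.50 to −0.19), called lower. These KLF members thus differed in direction in wild type, the one higher and the other lower than in untreated cells under TMM scaling.

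The IER genes did not move together either. Ier2 (ENSMUSG00000053560, chr8:84661331-84662852, minus strand), a single-exon gene for a small nuclear protein, had 1276 and 1473 counts in untreated, 1249 and 1385 in auxin-treated and 1659 and 1752 in wild-type libraries. Only the wild-type libraries lay apart from the untreated ones in CPM. The log2 fold change was −0.16 with auxin (SE 0.08, 95% interval −0.34 to 0.02) and 0.32 in wild type (SE 0.07, 95% interval 0.16 to 0.49), called higher and negative under mitochondrial scaling. Ier3 (ENSMUSG00000003541, chr17:35821684-35822923, plus strand) encodes a stress-inducible membrane protein linked to cell survival, and its AU-rich stretch is printed above. Its counts were 224 and 173 in untreated, 225 and 233 in auxin-treated and 248 and 238 in wild-type libraries, so the untreated replicates spanned a wider range than the other 2 groups did. The log2 fold change was 0.10 with auxin (SE 0.14, 95% interval −0.21 to 0.41) and 0.30 in wild type (SE 0.14, 95% interval −0.01 to 0.61), neither called and the latter negative under mitochondrial scaling. Ier5 (ENSMUSG00000056708, chr1:155096361-155099636, minus strand), a single-exon gene whose protein acts on heat shock factor, had 485 and 350 counts in untreated, 561 and 515 in auxin-treated and 266 and 286 in wild-type libraries. Untreated replicate 1 lay inside the auxin-treated range in CPM and replicate 2 below it, and both wild-type libraries lay below all others. The log2 fold change was 0.26 with auxin (SE 0.13, 95% interval −0.02 to 0.54), not called, and −0.59 in wild type (SE 0.14, 95% interval −0.90 to −0.28), called lower.

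**Figure D3:**
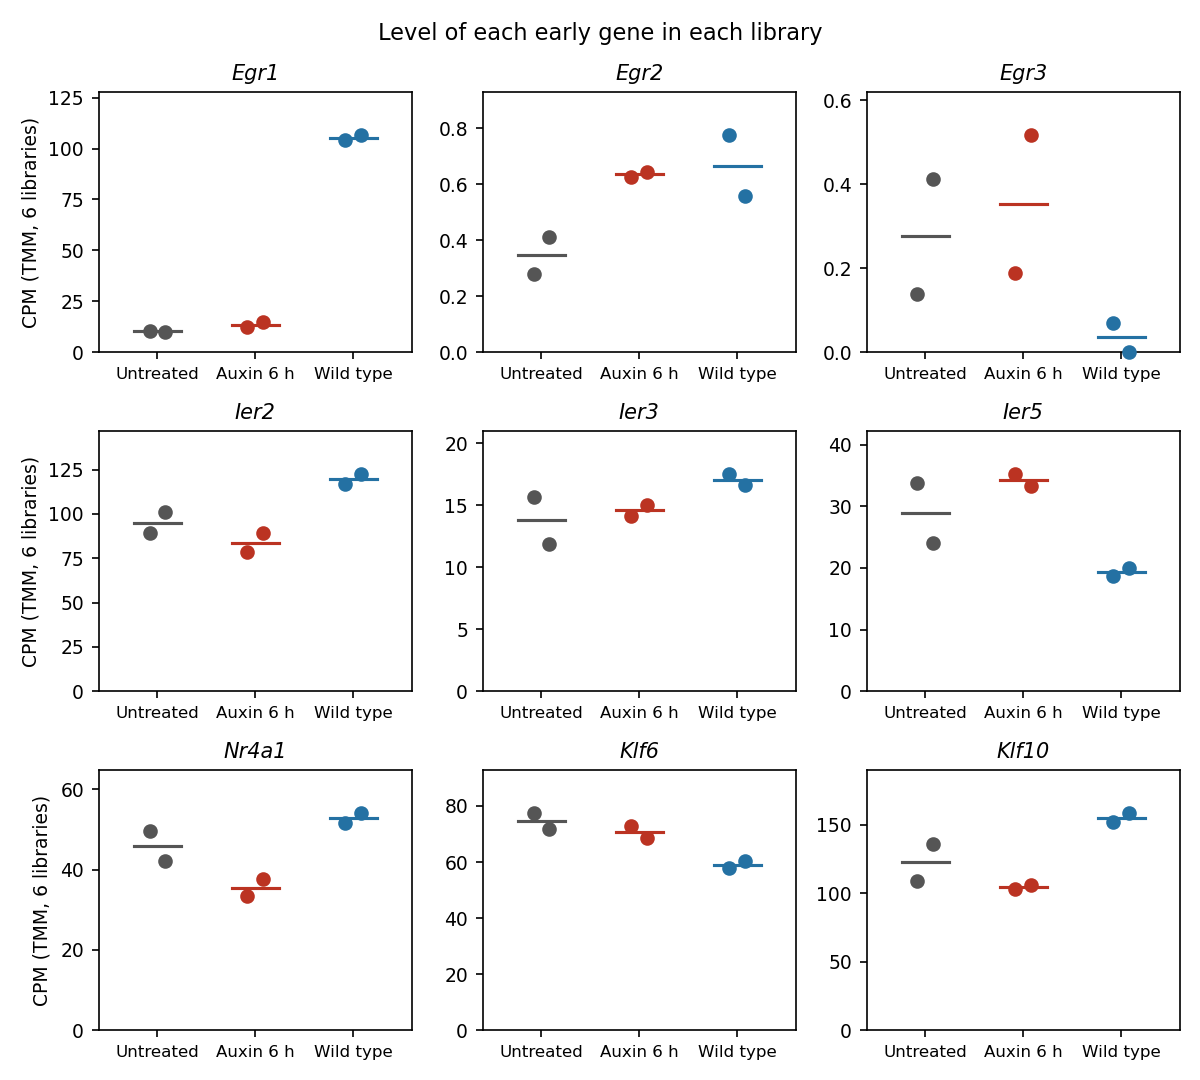
CPM after TMM scaling over the 6 libraries (y axis, from 0, a scale per panel) for each of the 9 early genes, with a point per library and a line at the mean of each group (x axis). Egr1 is near 10.2 and 13.5 CPM in the degron groups and 105 in wild type, Ier5 and Klf6 are lowest in wild type, and the untreated replicates of Ier5 and Klf10 are far apart.

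The untreated group, shared by both comparisons, was the more variable one for several members. The SD of its CPM was 6.90 for Ier5, 19.1 for Klf10 and 2.64 for Ier3, against 1.38, 1.93 and 0.655 after auxin and 0.865, 4.44 and 0.608 in wild type. A deviation of an untreated library enters both comparisons, so their values are set side by side only. Feeder fibroblasts can express early genes, and the summed feeder markers moved with the groups. After auxin 2 of 12 feeder markers tested were called higher and 0 lower, and in wild type 2 of 11 were higher and 7 lower. The part of the feeders in the members' values was not tested.

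Among the closest relatives and cofactors of the members, edgeR called 0 of the 4 genes tested with auxin, where 2 had an unadjusted p under 0.05, DESeq2 called 0 and edgeR called 1 without untreated replicate 1. Over all 16128 genes tested with auxin, 1733 had an unadjusted p under 0.05 with a positive log2 fold change and 1512 with a negative one. Nr4a2, another receptor of the Nur77 family, had 47 and 55 counts in untreated, 84 and 85 in auxin-treated and 33 and 31 in wild-type libraries. Its log2 fold change was 0.62 with auxin (SE 0.21), not called, and −0.66 in wild type (SE 0.26), called lower. Nr4a1 had −0.35 and 0.20 in the same fits. Nr4a3 had 1 and 3, 13 and 6, and 1 and 0 counts in the same order of groups, Egr4 had 1 and 4, 4 and 6, and 6 and 6, and neither passed the filter. Ier5l, a paralog of Ier5, had 405 and 380, 508 and 521, and 487 and 462 counts, with 0.29 with auxin (SE 0.09), not called, and 0.28 in wild type (SE 0.09), called higher. The NAB corepressors, which EGR proteins induce and which restrain them, were not called in either comparison. Nab2, the EGR-inducible one, had 169 and 170 counts in untreated, 144 and 205 in auxin-treated and 176 and 215 in wild-type libraries, with a log2 fold change in wild type of 0.22 (SE 0.14, 95% interval −0.09 to 0.53) where Egr1 had 3.36. Nab1 had values of 0.14 with auxin and −0.18 in wild type (SE 0.12 in each). The wild-type calls of Nr4a2 and Ier5l were 0 without wild-type replicate 1 and 1 without wild-type replicate 2, and DESeq2 called 0 of the 4.

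Of the other 15 Krüppel-like factors, 14 were tested. With auxin 1 was called higher and 2 lower, with a median of −0.18. Klf1, a red cell factor at low counts here (26 and 24 in untreated, 55 and 58 in auxin-treated libraries), was at 1.07 (SE 0.26), and Klf2 and Klf11 were at −0.51 (SE 0.10) and −0.38 (SE 0.08). These 3 calls were 8 without untreated replicate 1, 0 without auxin-treated replicate 1 and 1 without auxin-treated replicate 2, and DESeq2 called 1, a lower one. In wild type 4 were called higher and 7 lower, with a median of −0.15. The naive pluripotency factors Klf4 and Klf2 went in opposite directions there, Klf4 to 0.89 (SE 0.07) from 1758 and 2083 to 3508 and 3576 counts, and Klf2 to −1.16 (SE 0.09) from 3809 and 4725 to 1842 and 1938 counts. Klf13 was also higher at 1.05 (SE 0.07), and Klf9 and Klf15 were lower at −0.75 (SE 0.06) and −1.46 (SE 0.12). Klf4 and Klf2 are also among the mESC markers above.

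The AP-1 genes, which encode the FOS and JUN partners and are induced by the same signals, were called higher with auxin in 4 of 8 cases, with a median log2 fold change of 0.44. Fos had 60 and 60 counts in untreated, 191 and 213 in auxin-treated and 218 and 175 in wild-type libraries, a log2 fold change of 1.65 with auxin (SE 0.17) and 1.72 in wild type (SE 0.18). Fosb was at 1.74 (SE 0.29), Jun at 0.54 (SE 0.10) and Fosl2 at 0.50 (SE 0.11) with auxin. The number called was 1 without auxin-treated replicate 2. Egr1, with 0.42, lay below these in the same fit, and the difference between Egr1 and Fos was not tested. In wild type 1 AP-1 gene (Fos) was called higher and 5 lower, among them Atf3 at −1.89 (SE 0.15) and Fosl2 at −1.57 (SE 0.13), so Fos and Egr1 were high together in wild type while most AP-1 genes were not.

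A list of 36 other early response genes had 7 called higher and 5 lower with auxin, with a median of 0.04. Rhob (0.60), Tiparp (0.54), Gadd45b (0.52) and Cited2 (0.38) were higher, and Plk3 (−0.45), Pim1 (−0.39), Mcl1 (−0.33) and Pim3 (−0.35) were lower on the log2 scale, with SE of 0.06 to 0.09. The 12 calls became 21 without untreated replicate 1, 3 without auxin-treated replicate 1 and 4 without auxin-treated replicate 2. In wild type 35 were tested, of which 7 were higher and 18 lower, with a median of −0.26. Sgk1, a serum-inducible kinase, rose from 1116 and 1015 to 4332 and 4265 counts (2.02, SE 0.07), Sik1 was at 0.95 (SE 0.07) and Arc at 1.26 (SE 0.10), while Plk3, a polo-like kinase of the stress response, fell from 1898 and 1915 to 468 and 513 counts (−1.95, SE 0.07), Cited2 was at −1.05 (SE 0.08) and Phlda1 at −1.51 (SE 0.13).

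None of the listed genes that act upstream of the members was called with auxin, where 2.56% of all genes were called higher and 1.64% lower. Of all 16128 genes, 1733 were higher and 1512 lower at an unadjusted p under 0.05. Of 16 SRF, ternary complex factor and CREB regulators edgeR called 0, with log2 fold changes between −0.13 and 0.25, and of 14 genes of the ERK cascade it called 0, with values between −0.18 and 0.15. At an unadjusted p under 0.05 these counts were 0 and 2, and DESeq2 called 0 in both lists. Without untreated replicate 1 the former count was 1, and without untreated replicate 2 the latter was 2. In wild type 7 of the 16 regulators were higher and 3 lower, including the ERK-activated kinases Rps6ka1 at 0.61 (SE 0.06) and Rps6ka5 at 0.91 (SE 0.14), the ternary complex factor Elk1 at −0.47 (SE 0.08) and the CREB coactivator Crtc3 at −0.82 (SE 0.15). Of the ERK cascade 7 were higher and 2 lower, with Sos1 at 0.69 (SE 0.07), Map2k1 at 0.59 (SE 0.06) and Braf at 0.59 (SE 0.07) above and Araf at −0.58 (SE 0.06) and Map2k2 at −0.43 (SE 0.07) below untreated cells. The 9 calls of the cascade were 5 without wild-type replicate 1. The kinases ERK and MEK act as proteins, and their activity was not measured.

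A list of feedback inhibitors of ERK and related phosphatases, many of them early targets of the pathway, had calls in both directions in wild type. All 13 were called, 7 higher and 6 lower, where 29.9% of all genes were called higher and 30.7% lower. Spry4 rose from 392 and 326 to 1803 and 1794 counts (2.33, SE 0.09), and Spred1 (0.81, SE 0.07), Spry2 (0.57, SE 0.07) and Spred2 (0.49, SE 0.06) were higher. Dusp4, a nuclear phosphatase of ERK, fell from 2656 and 2872 to 583 and 640 counts (−2.17, SE 0.07), and Spred3 (−1.87, SE 0.12), Dusp10 (−1.88, SE 0.18) and Dusp5 (−1.22, SE 0.13) were lower. With auxin 1 was higher (Spred3 at 0.43, SE 0.10) and 1 lower (Spry2 at −0.36, SE 0.08), and these 2 calls were 4 without untreated replicate 1, 1 without auxin-treated replicate 1 and 0 without auxin-treated replicate 2, and DESeq2 called 0 of the 13.

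The letters ATTTA, held by 8 of the 9 members, are also held by 61.9% of genes with a 3′ UTR. Binding of proteins to the members was not tested. Of 8 listed genes for proteins that bind AU-rich elements, 1 was called with auxin. This was Zfp36l1, which promotes decay of such mRNAs, with 582 and 547 counts in untreated and 878 and 975 in auxin-treated libraries and a log2 fold change of 0.61 (SE 0.09). In wild type 6 were called higher and 1 lower, with Hnrnpd at 1.12 (SE 0.06), Khsrp at 1.08 (SE 0.06) and Zfp36l2 at 0.79 (SE 0.07) above and Tia1 at −0.65 (SE 0.09) below untreated cells. The count with auxin was 2 without untreated replicate 1 and 3 without untreated replicate 2.

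SRF also drives actin cytoskeleton genes through the MRTF coactivators, and these went the other way from Egr1 in wild type. Of 15 such genes 13 were called lower and 2 higher, with a median of −1.05. Tagln, a smooth muscle actin-binding protein, had 7064 and 5968 counts in untreated and 1242 and 1205 in wild-type libraries (−2.40, SE 0.09), Acta2 was at −1.51 (SE 0.08), Tpm1 at −1.60 (SE 0.09) and Cnn1 at −2.44 (SE 0.18), while Actb was higher at 1.06 (SE 0.08). Fibroblasts also express these genes, 7 of 11 feeder markers were called lower in wild type, and the part of the feeders in these values was not tested. With auxin edgeR called 0 of the 15, with a median of 0.11, as did DESeq2, and 0 had an unadjusted p under 0.05. The number called rose without untreated replicate 1, but calls over all genes rose there too, and 1 untreated library remained.

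Early targets of TGF-beta and BMP, the signals to which Klf10 responds, had 1 of 9 called higher (Id3 at 0.36, SE 0.08) and 1 lower (Tgif1 at −0.36, SE 0.07) with auxin. Their median was 0.27, and 8 of the 9 were above 0, with Tgif1 below, while Klf10 was at −0.21. In the edgeR test, 1733 of all 16128 genes had an unadjusted p under 0.05 with a positive log2 fold change, and 1512 with a negative one. Of the 9 listed genes 7, Tgif1 among them, were under this threshold. In wild type 4 were higher and 2 lower, led by Smad7 at 1.75 (SE 0.07) and Id3 at −1.81 (SE 0.12). Heat shock genes, to which Ier5 is linked, had 1 of 10 higher (Hspa1b at 0.74, SE 0.15) and 1 lower (Hspa8 at −0.39, SE 0.08) with auxin, and in wild type 6 higher, among them Hspd1 at 0.75 (SE 0.06) and Hsph1 at 0.80 (SE 0.08), and 1 lower, Hspa1a at −1.28 (SE 0.28), beside Ier5 at −0.59. Hspa1a and Hspa1b are near-identical copies that can share reads. With auxin each of these pairs of calls was 5 without untreated replicate 1 and 0 when 1 auxin-treated replicate, of either number, was left out, and DESeq2 called 1 gene of each list, a lower one. For all lists in wild type, scaling to the mitochondrial mRNAs moved values down with the median of all genes, so each count of higher and lower calls holds for TMM scaling. Beside the counts of every list, 29.9% of all genes tested were called higher and 30.7% lower in wild type. With auxin these shares were 2.56% and 1.64%, and the unadjusted counts of all genes given above stand beside each list. Counts with 1 library left out rest on 1 library in a group, and with auxin the calls over all genes moved in those fits too.

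**Figure D4:**
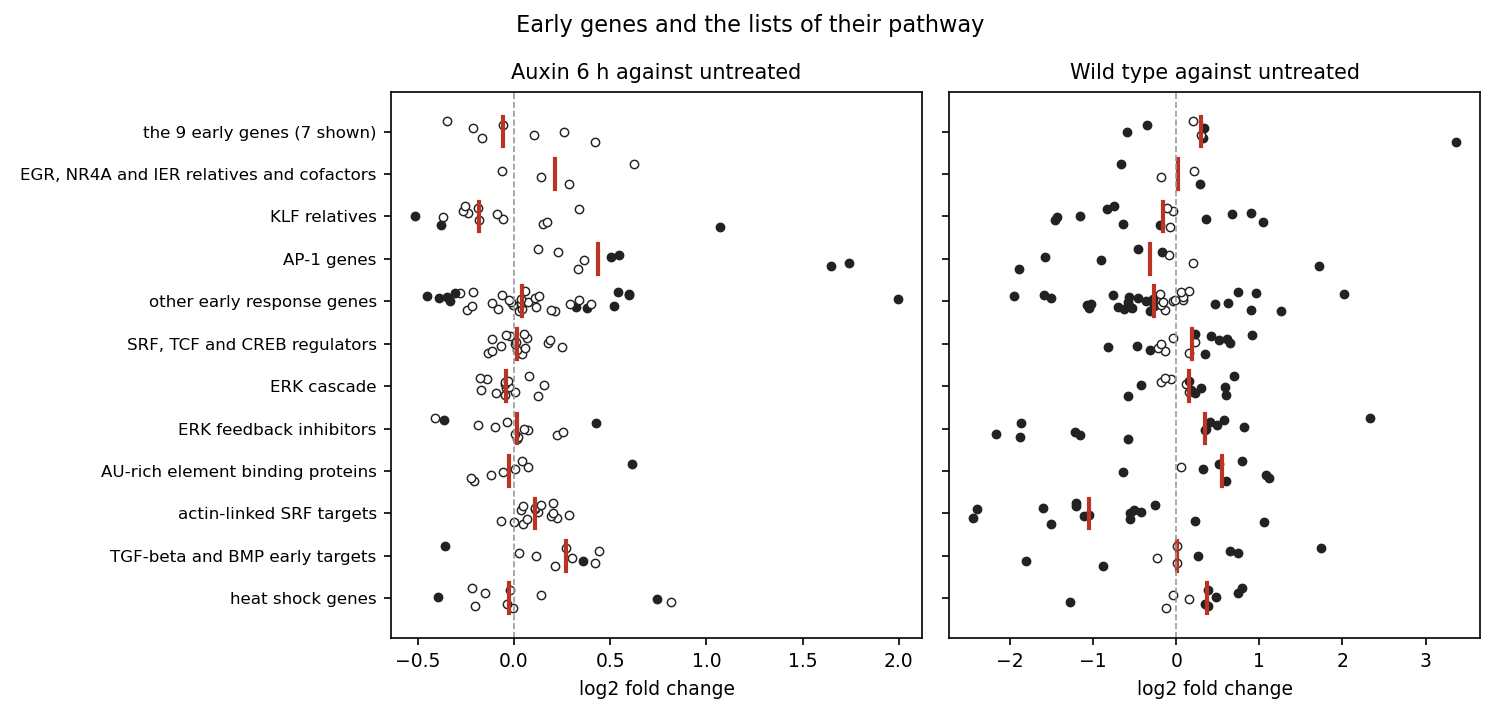
Fitted log2 fold change (x axis) of every tested gene of the early genes and of 11 lists of their pathway (rows), for auxin 6 h (left) and wild type (right, with its own scale) against untreated, with filled points for called genes and a red bar at the median of each row. With auxin the AP-1 row has the highest median, 0.44, and the row of the early genes is at −0.06, whereas in wild type Egr1 at 3.36 is the point farthest to the right and actin-linked genes have a median of −1.05, all under TMM scaling.

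Over the 6 libraries the mean profile of the 7 members that passed the filter, as centered log2 CPM, was −0.11 and −0.23 in untreated, −0.23 and −0.14 in auxin-treated and 0.33 and 0.38 in wild-type libraries. The 5 genes most like it among 10962 candidates were Phf19, Zfp770, Chd8, Nav1 and Dusp27, with Pearson's r of 0.998 to 0.999, which for 6 libraries in 3 groups describes mainly a level that is higher in wild type. Phf19, for example, had 132 and 113 counts in untreated, 122 and 142 in auxin-treated and 297 and 303 in wild-type libraries. Egr1 weighs most in the rise of this mean profile in wild type, with a fitted log2 fold change of 3.36 there. The other members in the profile lay between −0.59 and 0.33, so the rise mainly describes Egr1 and not the members as a set. The members themselves were less alike. For every member but Egr1, the mean of the others includes Egr1. The correlation of each with the mean of the others was 0.61 for Egr1, 0.83 for Ier2, 0.75 for Ier3, 0.73 for Nr4a1 and 0.75 for Klf10, but −0.87 for Ier5 and −0.92 for Klf6, which were lowest where the others were highest.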

How the data were processed

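PolyA RNA-Seq of 6 libraries was analysed. The authors aligned reads to mm10 and deposited whole-number counts for 39017 genes, without normalization, in 2 tables. The submitters' processing notes name HISAT2 2.1.0, Salmon, HTSeq and DESeq2, and the annotation release and strand setting are not given in the sources used here. The deposited fold changes and p-values of the authors' own comparison were not used, nor were 2 other columns of per-sample values. Each comparison was fitted on its own 4 libraries with edgeR 4.0.16 in R 4.3.3 (filterByExpr with a minimum count of 10, TMM, glmQLFit and glmQLFTest, Benjamini-Hochberg adjustment over all genes tested), and calls were made at an adjusted p under 0.05. The procedure was run on simulated data with the same dispersion for every gene. Its outcome is not used here, since the replicates of these groups spread unequally. Genes that did not pass the filter were given as ratios of summed counts with exact binomial intervals, which cover counting error only. Total counts per library lay between 14094022 and 15358714, so genes with few counts are known poorly. The members and lists were chosen with earlier results of these data known. Named were all members, their relatives and cofactors, up to 4 called genes of each other list per direction with the smallest p, and the 5 genes with the most similar profile (Pearson's r, mean count of at least 100). Alternatives were DESeq2 1.42.0, other scalings, filters, dispersion and prior counts, a replicate block, all 3 groups in one fit, and each library left out. Replicate numbers in the labels name no shared culture.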

Additional observations from a re-analysis of the deposited data

How the results depend on the processing

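With auxin, 677 genes were called in all. The count was 219 when scaled to the mitochondrial mRNAs (167 higher and 52 lower, against 413 and 264), 55 with no filter (43 and 12), 432 with at least 10 counts in every library, 236 with DESeq2, 1235 with all 3 groups in one fit (567 and 668) and 1930 with a replicate block. It ran from 179 without auxin-treated replicate 2 to 2724 without untreated replicate 1, with 184 without auxin-treated replicate 1 and 1114 without untreated replicate 2. Members called, 0 of 7, became 4 with the replicate block (Egr1 and Ier5 higher, Nr4a1 and Klf10 lower), 2 with all 3 groups in one fit (Egr1 and Nr4a1), and between 0 and 4 with 1 library left out. Their median of −0.06 was −0.23 under mitochondrial scaling, which moved the median of all genes by −0.17, and was between −0.08 and −0.0096 with 1 library left out.

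In wild type, 9555 genes were called, 15308 under mitochondrial scaling (73 higher and 15235 lower), and 7532 to 9570 with 1 library left out. Members called, 5 of 7, were 3 with no filter, where Ier5 and Klf10 were not called, and between 5 and 7 with 1 library left out. The replicate block also called Ier3 and Nr4a1 higher. Their median of 0.30 was −1.81 under mitochondrial scaling and between 0.12 and 0.30 with 1 library left out. Under mitochondrial scaling Ier2 was at −1.77, Ier3 at −1.81, Nr4a1 at −1.91 and Klf10 at −1.75, with the shift of all genes at −2.09.

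Same-numbered libraries deviated with a correlation of 0.06 with auxin and −0.03 in wild type. With so few libraries this cannot show whether same-numbered libraries shared a culture or day, which the labels do not give. The causes of these changes were not tested, except that each fit without a library has fewer samples and that its lone library is assumed to vary like the other group. Egr2 and Egr3, with at most 11 counts in a library, are limited by depth.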
